A study of Homo sapiens with 8 samples.

Results

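The core circadian clock of bladder cancer (BLCA) cells was followed over increasing doses of melatonin through 10 genes: CLOCK, ARNTL (also named BMAL1), PER1, PER2, PER3, CRY1, CRY2, NR1D1, NR1D2 and DBP. They were picked by gene symbol, with earlier results of these data known, from the 60612 genes of the deposited expression table, and all 10 were found. The cells were 5637, grown in RPMI, and UM-UC3, grown in MEM, both with fetal bovine serum and both labelled WT. Each established human BLCA line received DMSO alone (0 mM) or melatonin at 1, 2 or 4 mM for 24 h, and 1 RNA library represents each dose in each line, 8 libraries in all. Cell line and medium cannot be told apart, and nothing in the sources says whether the libraries came from separate cultures, so the p-values reflect how far these 8 libraries scatter about a dose trend, with no replicate of any dose in either line. No sampling time other than 24 h was found in the labels, so the values are levels at a single time and not rhythms.

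The circadian clock is a feedback loop of transcription. CLOCK and ARNTL form a dimer that binds E-box sequences and activates the PER and CRY genes, whose proteins return to the nucleus and repress that dimer. In a further loop the nuclear receptors NR1D1 and NR1D2 (REV-ERB alpha and beta) repress ARNTL through ROR elements, where ROR receptors activate it, and DBP activates genes that carry a D-box. PER1 and PER2 also respond quickly to signals from outside the cell, and melatonin is the hormone by which the pineal gland marks night.

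Expression was given as 1 normalized value per gene and library, taken to be FPKM (fragments mapped to a transcript, divided by its length and by the library's size), a scale per length on which different genes can be compared. The read depth of the libraries is unknown. The summed FPKM was 332961 to 342526 in 5637 cells and 346772 to 395621 in UM-UC3 cells, with the highest sum at 4 mM. From the lowest to the highest dose, mitochondrial genes took 13.88, 16.21, 16.79 and 18.19% of this sum for 5637, and for UM-UC3 the shares were 13.44, 11.87, 19.38 and 17.33%. Of 14 urothelial and epithelial markers, 11 had a mean FPKM of at least 1 in 5637 cells but 5 in UM-UC3 cells, where UPK1B and UPK3A were listed at 0, while the summed FPKM of 3 mesenchymal markers was 57.6 to 87.1 in 5637 cells and 1185 to 1253 in UM-UC3 cells. Most of the latter sum was VIM (mean 1164 FPKM against 43.7 FPKM in 5637 cells), whereas CDH2 was higher in 5637 cells (31.0 against 11.2 FPKM). In 5637 cells UPK3A was listed at 0 too, and the summed epithelial markers ranged from 997 at 4 mM to 3665 with DMSO. Of the 11 with a mean FPKM of at least 1 in that line, 8 were lower at 4 mM than with DMSO (KRT19 at 231 against 1229 FPKM, for example) and 3 were higher, among them CDH1 at 76.4 against 36.3 FPKM. In UM-UC3 cells the summed epithelial markers ranged from 105.1 to 214.4 FPKM. Of the 5 with a mean FPKM of at least 1 there, 4 were lower at 4 mM than with DMSO and 1 was higher. Leukocyte markers summed to at most 0.242 FPKM and endothelial markers to at most 0.0824 FPKM in any library, while 3 fibroblast markers summed to between 6.34 and 9.69 FPKM in 5637 cells, nearly all of it COL1A1, and to at most 0.103 FPKM in UM-UC3 cells. The melatonin receptor genes MTNR1A and MTNR1B together reached at most 0.111 FPKM in 5637 cells and 0.0404 FPKM in UM-UC3 cells. In bulk RNA, fewer cells of a kind and less RNA per cell cannot be told apart, and the part of these marker and mitochondrial shifts in the clock values was not tested.

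The clock genes spanned a wide range of levels. In 5637 cells NR1D2 had the highest mean over the 4 doses, 17.0 FPKM, followed by ARNTL at 10.3, CRY1 at 8.79, CLOCK at 6.65, CRY2 at 5.76 and NR1D1 at 3.84 FPKM. PER2 at 2.90, PER1 at 1.92, DBP at 1.18 and PER3 at 0.388 FPKM came last. The 4-dose ranges of neighbours in this order overlapped, except those of CRY2 and NR1D1 and those of DBP and PER3. In UM-UC3 cells NR1D2 also led, at 34.9 FPKM, but PER1 came next at 12.0 FPKM, ahead of CRY1 at 9.55, CLOCK at 8.49, CRY2 at 5.91 and NR1D1 at 5.07 FPKM. DBP at 3.84, ARNTL at 3.81, PER3 at 2.35 and PER2 at 0.902 FPKM closed the order, in which the ranges of all neighbours overlapped. The 10 genes together summed to between 50.2 and 65.4 FPKM in 5637 cells and between 66.9 and 108.5 FPKM in UM-UC3 cells, with the highest sum of each line at 4 mM.

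**Figure D1:**
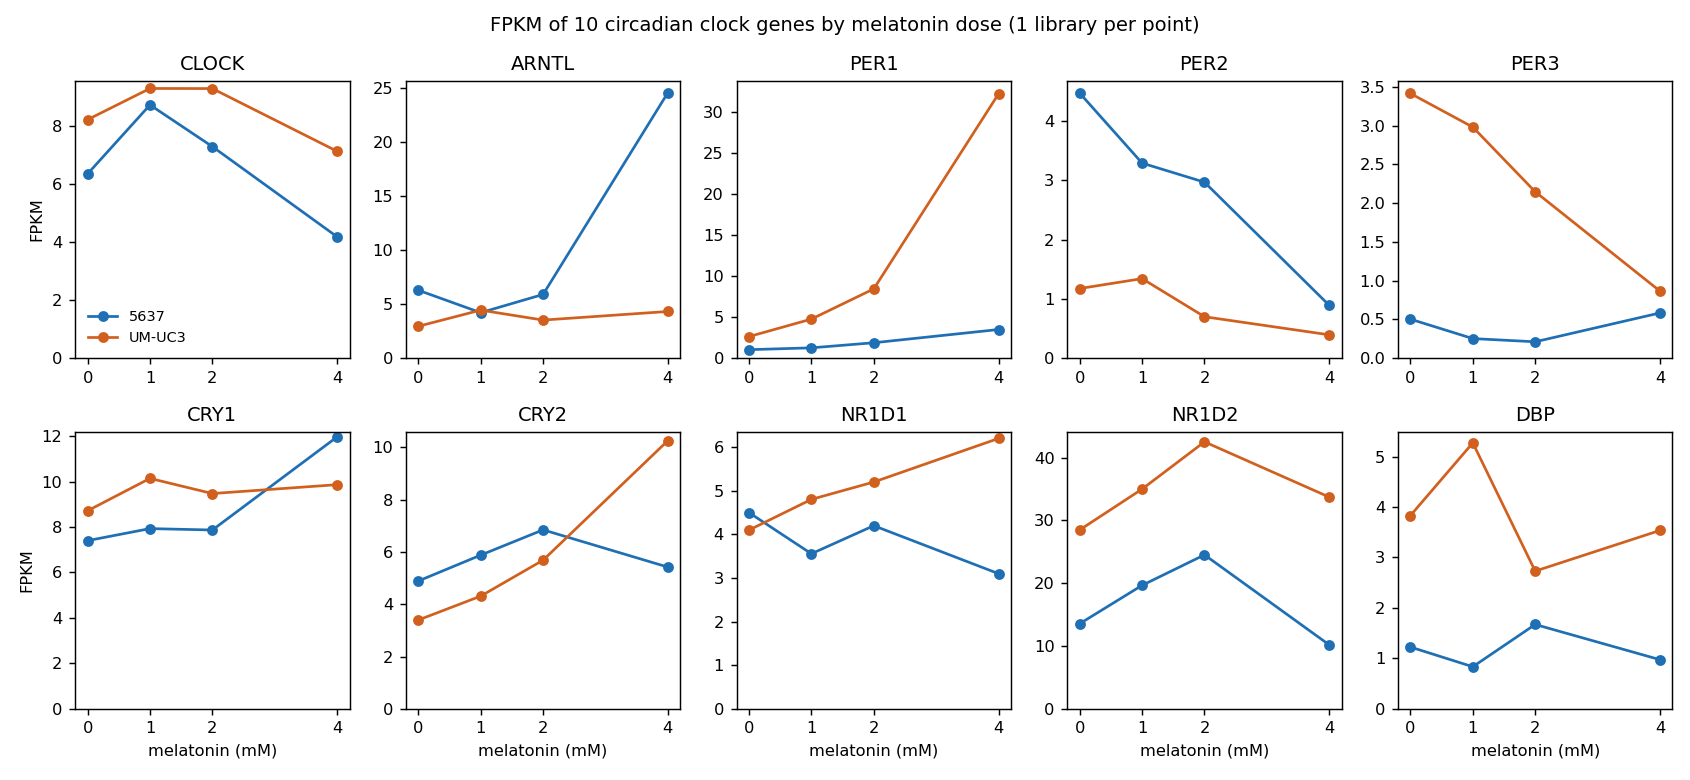
Level of each of the 10 clock genes in FPKM (linear axis from 0, with its own scale in each panel) against the melatonin dose in mM, 1 panel per gene, with 1 point per library and a line for each cell line. PER1 went up at each dose step in both lines, to 3.49 FPKM in 5637 and 32.2 FPKM in UM-UC3 cells at 4 mM, while ARNTL stood apart only in the 5637 library at 4 mM, at 24.6 FPKM.

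To ask which clock genes changed with the dose, log2(FPKM + 1) was fitted with limma against the dose over 12649 genes, those whose mean FPKM was 1 or more. All 10 clock genes passed this filter, PER3 through its level in UM-UC3 cells and PER2 through its level in 5637 cells. Each log2 fold change gives the fitted difference between 4 mM and DMSO in log2(FPKM + 1), which understates the change of genes near 1 FPKM, and calls needed an adjusted p (Benjamini-Hochberg, over all genes tested) under 0.05. Over both lines PER1 rose, PER2 fell and the other 8 clock genes were not called, while 24.9% of all genes tested were called. In 5637 cells 3 clock genes rose (ARNTL, PER1 and CRY1) and 1 fell (PER2), against 43.3% called among all genes. In UM-UC3 cells 2 rose (PER1 and CRY2) and 1 fell (PER3), against 29.2% called among all genes. The median log2 fold change of the 10 genes was −0.03 over both lines, beside −0.01 for all genes tested. In 5637 cells it was 0.02 beside 0.05, and in UM-UC3 cells 0.16 beside −0.04. These shares of clock genes called were close to or below those of all genes. A difference between the slopes of the lines was called for PER1, PER3 and CRY2, 3 of 10 genes (2 higher and 1 lower in UM-UC3 cells). This compares with 25.7% of all genes tested (10.4% higher and 15.3% lower). PER3, the lower one, was under 1 FPKM in every 5637 library. Its call therefore cannot separate a different response from a low level.

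**Figure D2:**
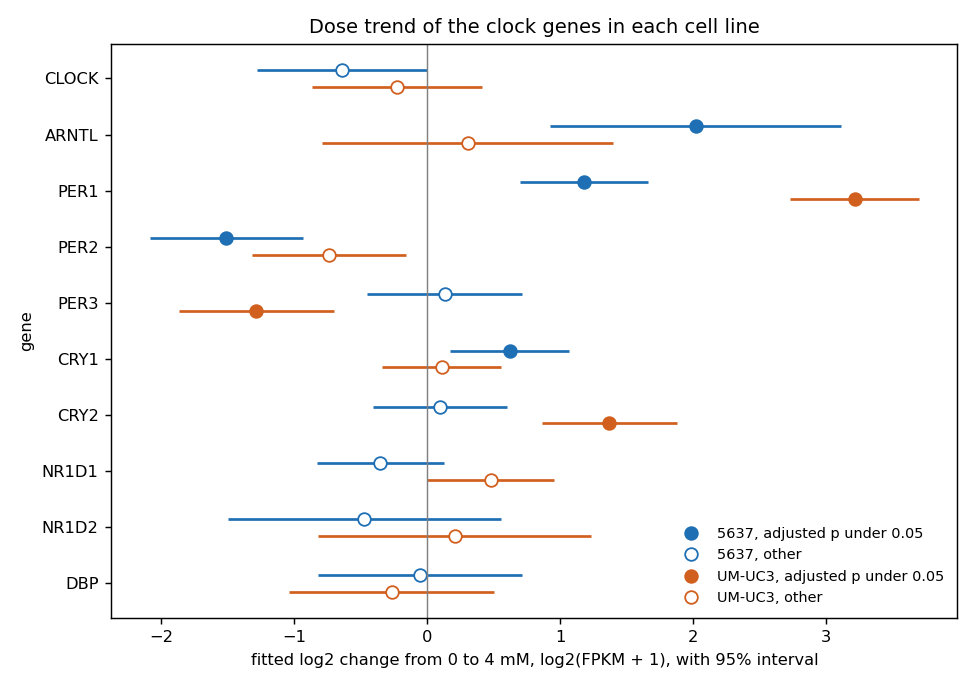
Fitted log2 fold change from 0 to 4 mM melatonin of each clock gene in 5637 and in UM-UC3 cells (points, limma on log2(FPKM + 1)), with bars for the 95% confidence interval of each fit and filled points where the adjusted p was under 0.05. PER1 lay above 0 in both lines, at 1.18 and 3.22, and ARNTL at 2.02 in 5637 cells but 0.31 in UM-UC3 cells.

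The period genes encode the repressors that set the pace of the loop, and within this family PER1 and PER2 moved apart. PER1 was measured at 1.03, 1.26, 1.88 and 3.49 FPKM in 5637 cells at 0, 1, 2 and 4 mM. In UM-UC3 cells PER1 was at 2.63, 4.76, 8.45 and 32.2 FPKM. Each dose step was higher than the one before in both lines, an order found in 21.6% of tested genes for 5637 and 14.3% for UM-UC3. The level at 4 mM was 3.38 times that with DMSO in 5637 cells and 12.3 times in UM-UC3 cells, and already at 2 mM it was 1.82 and 3.21 times the DMSO level. PER1 rose over both lines by a log2 fold change of 2.20 (SE 0.377, adjusted p = 0.00501, 95% interval 1.35 to 3.05). It rose within each line, by 1.18 in 5637 cells (SE 0.218, adjusted p = 0.00198) and by 3.22 in UM-UC3 cells (SE 0.218, adjusted p = 7.78e-05), and the slope was steeper in UM-UC3 cells by 2.03 (SE 0.308, adjusted p = 0.00251). The call over both lines held with any 1 library left out, at adjusted p between 0.00323 and 0.0192. Each of those fits still holds a 4 mM library. The call over both lines was lost in 4 of 19 alternatives, among them the fit without both 4 mM libraries. Within a line it was lost when that line's 4 mM library was left out, at adjusted p = 0.188 for 5637 and 0.0556 for UM-UC3, and without the latter library so was the difference (adjusted p = 0.161).

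PER1 lies on the minus strand of chromosome 17, from 8140472 to 8156506 in GRCh38, and PER2 on the minus strand of chromosome 2, from 238244044 to 238290102. Since these period genes moved in opposite directions, the windows from 250 bases before to 50 after their RefSeq starts (GRCh38.p14) are shown, each on the gene's strand from 5′ to 3′. Capitals mark matches to CACGTG (E-box), CACGTT (a variant E-box), TTATGTAA (D-box) or AGGTCA (core of a ROR element), searched on both strands, and no matches overlapped. A match describes the letters only and is not a shown binding site.
PER1, chr17:8152355-8152654: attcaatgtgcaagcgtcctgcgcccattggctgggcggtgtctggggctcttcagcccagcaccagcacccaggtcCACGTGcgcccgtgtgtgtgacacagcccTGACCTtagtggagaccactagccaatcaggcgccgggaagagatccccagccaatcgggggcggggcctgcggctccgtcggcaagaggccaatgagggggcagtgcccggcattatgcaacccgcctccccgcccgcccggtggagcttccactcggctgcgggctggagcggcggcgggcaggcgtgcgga
PER2, chr2:238288561-238288860: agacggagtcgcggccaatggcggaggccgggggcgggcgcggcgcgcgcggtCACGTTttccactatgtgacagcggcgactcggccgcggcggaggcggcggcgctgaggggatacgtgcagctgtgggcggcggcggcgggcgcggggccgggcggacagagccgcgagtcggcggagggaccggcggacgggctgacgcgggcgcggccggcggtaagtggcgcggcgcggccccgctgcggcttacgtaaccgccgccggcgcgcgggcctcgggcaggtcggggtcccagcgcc
The PER1 window held a canonical E-box that begins 173 bases before the start and a ROR core, on the other strand, that begins 144 bases before it. The PER2 window held the variant E-box, 197 bases before the start. Among 35116 RefSeq promoter windows of the same length, 7.26% held the E-box, 5.34% the variant, 0.886% the D-box and 13.8% the ROR core. Among the 10 clock genes, which have 15 windows, the E-box was found in PER1 and NR1D2, the D-box in PER3 and NR1D2, the ROR core in PER1, ARNTL and CRY2, and the variant in 5 genes.

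PER2 went the other way. In 5637 cells PER2 was at 4.47, 3.29, 2.97 and 0.890 FPKM at 0, 1, 2 and 4 mM, lower at each step, which 15.6% of tested genes were in that line. In UM-UC3 cells it started lower and was at 1.17, 1.34, 0.699 and 0.393 FPKM. The level at 4 mM was 0.199 times the DMSO level in 5637 cells and 0.335 times in UM-UC3 cells. PER2 fell over both lines, with a log2 fold change of −1.12 (SE 0.241, adjusted p = 0.0113, 95% interval −1.67 to −0.58). This call was kept with any 1 library left out, at adjusted p between 0.00676 and 0.0406. It was lost in 5 of 18 alternatives, among them the fit without both 4 mM libraries. Within 5637 cells PER2 fell, with a log2 fold change of −1.51 (SE 0.259, adjusted p = 0.00140), but not beyond the threshold without the 4 mM library (adjusted p = 0.257). In UM-UC3 cells the value of −0.74 was not called (adjusted p = 0.0556). It was called there with libraries rescaled by TMM factors (adjusted p = 0.0466), with each library scaled to the same sum (−1.28, adjusted p = 0.0228) and with a pseudocount of 0.1 (−1.55, adjusted p = 0.0243). Scaling to the same sum raised all values, so the added 1 also weighed less there, and the part of each was not tested. In 10 of 16 alternatives it was not called, and 2 of the 8 fits with 1 library left out called it. The slopes of PER2 in the lines were not shown to differ (difference 0.77, adjusted p = 0.142).

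PER3, whose loss is known to disturb the mouse clock less than that of PER1 or PER2, was near absent in 5637 cells. The gene lies on the plus strand of chromosome 1, from 7784320 to 7845177. In 5637 cells it was at 0.503, 0.253, 0.211 and 0.584 FPKM, with no steady direction and no call (log2 fold change 0.13, adjusted p = 0.713). In UM-UC3 cells PER3 was at 3.42, 2.98, 2.15 and 0.866 FPKM, lower at each dose, and the 4 mM level was 0.253 times the DMSO level. PER3 fell in UM-UC3 cells, with a log2 fold change of −1.28 (SE 0.263, adjusted p = 0.00644). Its slope in UM-UC3 cells was lower than in 5637 cells by a log2 difference of −1.42 (SE 0.371, adjusted p = 0.0209). In 5637 cells PER3 was under 1 FPKM in every library. A decrease there could hardly show, so this test cannot separate a different response from a low level. Without the UM-UC3 4 mM library the fall was no longer called (adjusted p = 0.421), nor was the difference without the 4 mM library of either line (adjusted p = 0.405 and 0.377). With a pseudocount of 0.1, which weighs values under 1 FPKM more, the difference was −2.27 and not called (adjusted p = 0.0615).

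With FPKM summed over the family, the makeup of the period transcripts turned over. In 5637 cells PER2 made up 74.4% of the summed period FPKM with DMSO and 17.9% at 4 mM, while PER1 went from 17.2% to 70.3%. The sum itself lay between 4.80 and 6.01 FPKM at all 4 doses, so in this line the change was in the shares more than in the total. In UM-UC3 cells PER3 was the largest with DMSO, at 47.3% beside 36.4% for PER1 and 16.3% for PER2. At 4 mM PER1 made up 96.2% there, PER3 2.59% and PER2 1.17%, and the sum went from 7.22 to 33.5 FPKM. At 2 mM PER1 was at 37.1% in 5637 cells, still behind PER2 at 58.7%, and at 74.8% in UM-UC3 cells. These shares have no replicates, and no test was made on them.

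**Figure D3:**
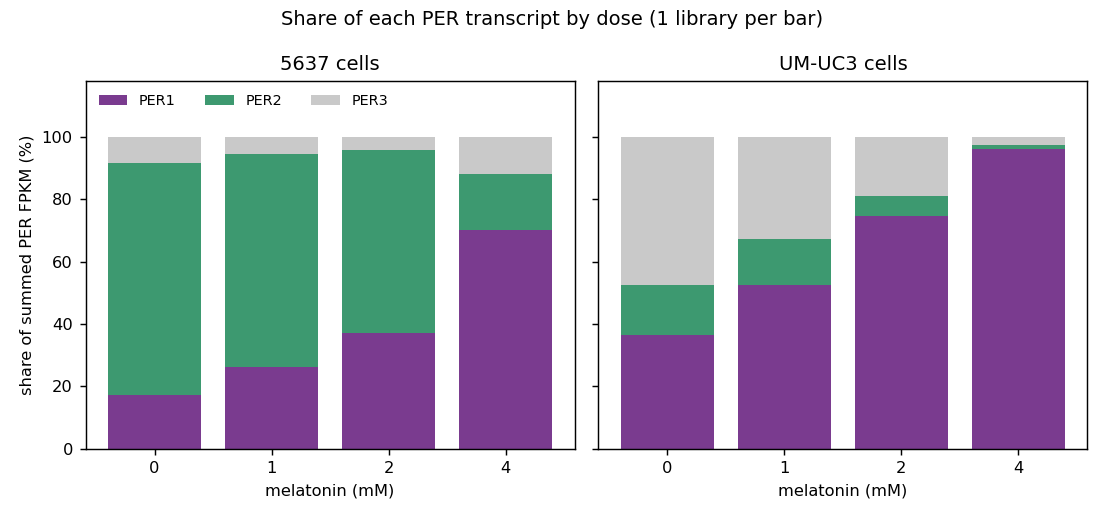
Share of the summed FPKM of PER1, PER2 and PER3 taken by each gene, in percent, in each of the 8 libraries by cell line and melatonin dose in mM, as stacked bars. Between 0 and 4 mM the share of PER1 went from 17.2% to 70.3% in 5637 cells and, in UM-UC3 cells, from 36.4% to 96.2%.

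Of the cryptochromes, the partners of the PER proteins in repression, CRY1 was called in 5637 cells and CRY2 in UM-UC3 cells, and a difference between the lines was called for CRY2. CRY1 (minus strand of chromosome 12, 106991364 to 107093549) was at 7.40, 7.93, 7.87 and 12.0 FPKM in 5637 cells at 0, 1, 2 and 4 mM, so only the library at the highest dose stood apart. In UM-UC3 cells CRY1 was at 8.71, 10.1, 9.47 and 9.86 FPKM. CRY1 rose in 5637 cells (log2 fold change 0.62, SE 0.201, adjusted p = 0.0294) and was not called in UM-UC3 cells (0.11, adjusted p = 0.733), where its sign turned with each library scaled to the same sum (−0.07). The difference between the slopes, −0.51, was not called (adjusted p = 0.201). The call in 5637 cells was lost without the 5637 library at 0, 1 or 4 mM.

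CRY2 lies on the plus strand of chromosome 11, from 45847118 to 45883248. In UM-UC3 cells it was at 3.40, 4.31, 5.69 and 10.3 FPKM, higher at each dose, and 3.02 times the DMSO level at 4 mM. In 5637 cells CRY2 was at 4.89, 5.88, 6.85 and 5.42 FPKM, highest at 2 mM. CRY2 rose in UM-UC3 cells (log2 fold change 1.37, SE 0.227, adjusted p = 0.00252) and was not called in 5637 cells (0.10, adjusted p = 0.751), and here the slopes differed, by 1.27 (SE 0.321, adjusted p = 0.0180). Without the UM-UC3 4 mM library the rise was no longer called (adjusted p = 0.270), nor was the difference without the 4 mM library of either line (adjusted p = 0.432 and 0.322). CRY1 made up 72.0% of the summed cryptochrome FPKM in UM-UC3 cells with DMSO and 49.0% at 4 mM, against 60.2% and 68.8% in 5637 cells. The cryptochrome sum was higher at each dose step in both lines, 12.3 to 17.4 FPKM in 5637 and 12.1 to 20.1 FPKM in UM-UC3 cells.

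The activators, which drive the period and cryptochrome genes, were called for ARNTL alone and in 5637 cells alone. ARNTL was at 6.30, 4.22, 5.90 and 24.6 FPKM in 5637 cells at 0, 1, 2 and 4 mM. It was level or lower up to 2 mM and 4.17 times as high at 4 mM as at 2 mM. In UM-UC3 cells ARNTL was at 2.95, 4.45, 3.53 and 4.33 FPKM. ARNTL rose in 5637 cells (log2 fold change 2.02, SE 0.483, adjusted p = 0.00934), a call that rests on the library at 4 mM: without it the value was −0.16 (adjusted p = 0.911). It was not called in UM-UC3 cells (0.31, adjusted p = 0.690), and the difference between the slopes, −1.71, was not called either (adjusted p = 0.0950, 95% interval −3.26 to −0.17), except without the 5637 DMSO library (−2.86, adjusted p = 0.00499).

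ARNTL lies on the plus strand of chromosome 11, from 13276652 to 13387266. Its second RefSeq start is shown because this gene is the known target of the REV-ERB and ROR receptors, with the capitals as above.
ARNTL, chr11:13277540-13277839: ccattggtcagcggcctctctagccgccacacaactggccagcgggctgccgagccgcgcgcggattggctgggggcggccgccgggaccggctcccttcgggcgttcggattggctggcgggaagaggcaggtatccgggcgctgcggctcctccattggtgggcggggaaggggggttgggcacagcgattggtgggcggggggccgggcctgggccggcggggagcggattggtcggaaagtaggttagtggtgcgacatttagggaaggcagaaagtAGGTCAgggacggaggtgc
Its ROR core begins 31 bases after the first transcribed base. The window at the first start held none of the 4 motifs. CLOCK, the partner of ARNTL (minus strand of chromosome 4, 55427903 to 55546909), was at 6.36, 8.74, 7.30 and 4.19 FPKM in 5637 cells and at 8.23, 9.31, 9.30 and 7.14 FPKM in UM-UC3 cells. In each line it was highest at 1 mM and lowest at 4 mM, and it was not called in 5637 cells (−0.64, adjusted p = 0.0973) nor for UM-UC3 cells (−0.22, adjusted p = 0.610) nor over both (−0.43, adjusted p = 0.191), although without the DMSO library it was called in 5637 cells (−1.23, adjusted p = 0.0109).

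The REV-ERB receptors, the repressors of ARNTL, were not called for a trend in either line. NR1D2 (plus strand of chromosome 3, 23945286 to 23980617) was at 13.6, 19.7, 24.5 and 10.2 FPKM in 5637 cells and at 28.5, 35.0, 42.5 and 33.7 FPKM in UM-UC3 cells. In both lines it was highest at 2 mM, at 1.81 and 1.49 times the DMSO level, and lower again at 4 mM, at 0.415 and 0.793 times the 2 mM level. A straight line over dose describes such a course poorly, with a log2 fold change of −0.47 in 5637 cells (adjusted p = 0.428) and 0.21 in UM-UC3 cells (adjusted p = 0.788). Without the DMSO library the value in 5637 cells was called, at −1.35 (adjusted p = 0.0390). Over 0, 1 and 2 mM alone NR1D2 rose over both lines, with a log2 fold change of 1.37 when the line is drawn on to 4 mM (adjusted p = 0.0457). The share of all genes called in that fit is not given here.

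NR1D1 (minus strand of chromosome 17, 40092793 to 40100589) was at 4.50, 3.56, 4.20 and 3.10 FPKM in 5637 cells and at 4.10, 4.80, 5.20 and 6.20 FPKM in UM-UC3 cells. It was higher at each dose in UM-UC3 cells, where it was not called (0.48, adjusted p = 0.119), nor was it in 5637 cells (−0.35, adjusted p = 0.211). The difference between these slopes, 0.83, was not called (adjusted p = 0.0679), but was after TMM rescaling (0.94, adjusted p = 0.0381). DBP, the D-box activator and a direct output of CLOCK and ARNTL (minus strand of chromosome 19, 48630030 to 48637379), was at 1.22, 0.833, 1.67 and 0.973 FPKM in 5637 cells and at 3.83, 5.27, 2.73 and 3.54 FPKM in UM-UC3 cells, with no steady direction and adjusted p = 0.914 and 0.616. NR1D1, NR1D2 and DBP each overlap a gene on the other strand, by 1075, 1306 and 688 bases of their spans with THRA, NKIRAS1 and SPHK2. CLOCK overlaps TMEM165, also on the other strand, over 25495 bases. As means over the 8 libraries, TMEM165 was at 24.2 FPKM beside 7.57 for CLOCK, and SPHK2 at 4.17 beside 2.51 for DBP. THRA was at 4.14 FPKM beside 4.46 for NR1D1, and NKIRAS1 at 3.89 beside 26.0 for NR1D2. The libraries were directional, but no source used here says whether counting used the strand. Reads of these partner genes therefore cannot be told apart from those of the clock genes they overlap. PER1 overlaps the protein-coding gene AC129492.3 on the same strand over 5691 bases, where the strand could not separate reads. AC129492.3 was at 0.536 FPKM or less in every library.

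Averaged over the 4 doses, the lines differed in the levels of some clock genes, although 66.6% of all genes tested did so as well (30.0% higher and 36.7% lower in UM-UC3 cells). This fit has a shared slope for both lines, so a gap that changes with the dose, as for PER1, is given as its average. The libraries of a line are not independent replicates of it. Higher in UM-UC3 cells were PER1 (log2 difference 1.70, adjusted p = 0.000532), DBP (1.14, adjusted p = 0.000707) and NR1D2 (1.06, adjusted p = 0.00450). The ranges over the 4 doses did not overlap for DBP and NR1D2, as was so in that direction for 22.7% of tested genes, and overlapped for PER1, which reached 3.49 FPKM in 5637 cells and began at 2.63 FPKM in UM-UC3 cells. Lower in UM-UC3 cells on average was ARNTL (−0.92, adjusted p = 0.0335), with overlapping ranges, whereas 28.4% of tested genes had all UM-UC3 libraries below all 5637 libraries. At 1 mM ARNTL was slightly higher in UM-UC3 cells (4.45 against 4.22 FPKM), and the gap was widest at 4 mM (4.33 against 24.6 FPKM). The ARNTL call was lost without the 5637 DMSO, the UM-UC3 2 mM or the UM-UC3 4 mM library (adjusted p = 0.0863, 0.0801 and 0.1004), and the value was −0.46 without the 5637 4 mM library. PER3 and PER2 passed the filter through a single line each, so their levels are given without a test: PER3 lay at 0.211 to 0.584 FPKM in 5637 and 0.866 to 3.42 FPKM in UM-UC3 cells, and PER2 at 0.890 to 4.47 and 0.393 to 1.34 FPKM. CLOCK (0.34), NR1D1 (0.33), CRY1 (0.13) and CRY2 (−0.05) were not called, and the sign of CRY2 turned after TMM rescaling (0.03). CRY2 was called lower in UM-UC3 cells without both 4 mM libraries (−0.34, adjusted p = 0.0275) and without the 5637 4 mM library (−0.31, adjusted p = 0.0492). CLOCK was called after TMM rescaling (0.42, adjusted p = 0.0440).

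Around this core, 30 further genes of the clock were listed by role, and 25 of them passed the filter. Over both lines 3 rose, 3 fell and 19 were not called, with a median log2 fold change of 0.02, beside 12.1% of all genes higher and 12.8% lower. In 5637 cells 6 rose and 3 fell, and in UM-UC3 cells 8 rose and 3 fell, beside 23.0% and 12.5% of all genes higher and 20.4% and 16.7% lower. Among the D-box factors NFIL3, the repressor that opposes DBP, was at 11.6, 13.2, 16.6 and 54.3 FPKM in 5637 cells and at 10.1, 17.8, 30.5 and 57.0 FPKM in UM-UC3 cells, higher at each dose in both lines. It rose over both lines with a log2 fold change of 2.28 (SE 0.221, adjusted p = 0.00104). TEF, an activator related to DBP, was at 4.19, 5.003, 5.003 and 0.581 FPKM in 5637 cells and at 1.83, 1.97, 1.49 and 1.25 FPKM in UM-UC3 cells. TEF fell in 5637 cells (−1.81, adjusted p = 0.00918), and without the 4 mM library its value was 0.42 (adjusted p = 0.585).

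RORA, the receptor that activates ARNTL, rose in each line and over both (1.04, adjusted p = 0.0117). It passed the filter through its level in UM-UC3 cells, with a mean of 2.68 FPKM against 0.538 FPKM in 5637 cells. The calls in 5637 cells and over both lines thus rest in part on values near the floor. It was at 0.153, 0.101, 0.339 and 1.56 FPKM in 5637 cells and at 1.98, 2.05, 2.504 and 4.20 FPKM in UM-UC3 cells. The call in UM-UC3 cells (adjusted p = 0.0417) was lost in 11 of 16 alternatives, and 3 of 8 fits with 1 library left out kept it. RORB, under the filter, was higher at each dose in 5637 cells, from 0.0781 to 1.33 FPKM, and went from 1.00 to 0.507 FPKM in UM-UC3 cells. BHLHE40, which competes with CLOCK and ARNTL for E-boxes, was at 8.61, 9.47, 11.7 and 4.60 FPKM in 5637 cells and at 6.55, 7.30, 9.96 and 69.9 FPKM in UM-UC3 cells. It rose in UM-UC3 cells (3.34, adjusted p = 0.00507), and its slope was higher there by 4.14 (adjusted p = 0.0101). Without the UM-UC3 4 mM library the value in that line was 1.07 (adjusted p = 0.518). The lines thus parted mainly at 4 mM, since BHLHE40 was higher at 1 and 2 mM than with DMSO in both.

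Among the kinases that mark PER and CRY proteins for breakdown, GSK3B moved in opposite directions. It was at 16.9, 22.3, 26.3 and 33.3 FPKM in 5637 cells and at 22.4, 24.4, 19.3 and 12.2 FPKM in UM-UC3 cells. GSK3B rose in 5637 cells (0.90, adjusted p = 0.00618) and fell in UM-UC3 cells (−0.91, adjusted p = 0.0102), and the slopes differed by −1.81 (adjusted p = 0.00328). CSNK1A1 rose in 5637 cells (0.64), CSNK1D (0.81) and CSNK2A1 (1.06) rose in UM-UC3 cells, and BTRC, part of the ubiquitin ligase that removes PER proteins, rose in 5637 cells (0.58). Of the partners of PER and CRY, SFPQ fell in both lines, in 5637 cells from 180.4 to 88.5 FPKM and in UM-UC3 cells from 124.4 to 59.5 FPKM (−1.03 over both, adjusted p = 0.00487). TIMELESS fell in 5637 cells (−0.88) and over both lines (−0.61, adjusted p = 0.0485), and TIPIN, its binding partner, rose in UM-UC3 cells (0.62). Of the outputs, NOCT, a phosphatase encoded by a rhythmic transcript, rose over both lines (1.28, adjusted p = 0.00784), KLF10 rose in UM-UC3 cells (1.63), and WEE1, the kinase that holds back mitosis, fell over both lines (−0.81, adjusted p = 0.0355) and in UM-UC3 cells (−1.26). Of the 25 genes of the wider list tested, 5 had a higher slope in UM-UC3 cells and 1, GSK3B, a lower one. Among all genes tested 10.4% were higher and 15.3% lower. Higher besides BHLHE40 were KLF10 (1.70), TIPIN (1.01), the kinase gene CSNK1E (1.00) and HDAC3 (0.94), which acts with the REV-ERB receptors. CSNK1E was named after its values were seen. The wider list's differences between the lines were not recomputed under the alternatives. Within a line, every call of the wider list was lost when that line's own 4 mM library was left out (limma, with 3 genes at an unadjusted p under 0.05 in each line), and CSNK1D in UM-UC3 cells then stood at 0.18. The call of CSNK1A1 was lost in 9 of 17 alternatives, TMM rescaling among them. The fall of TIMELESS over both lines was lost in 14 of 19 alternatives, and that of WEE1 with 5 of the 8 libraries left out in turn.

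Further genes of the smaller role groups, given here with their values, were not called for a trend in either line. NPAS2 and ARNTL2, which can stand in for CLOCK and ARNTL, lay at 0.876 to 1.12 and 9.33 to 15.7 FPKM in 5637 cells and at 1.74 to 2.82 and 9.94 to 15.1 FPKM in UM-UC3 cells, and ARNTL2 was lowest at 4 mM in both. The E-box repressors BHLHE41 and CIART were under 1 FPKM in every 5637 library and reached 4.14 and 1.82 FPKM in UM-UC3 cells. HLF, a D-box activator, stayed at or under 0.0123 FPKM in 5637 cells and went from 0.441 FPKM with DMSO to 0.0847 FPKM at 4 mM in UM-UC3 cells, under the filter. NCOR1 and HDAC3, the corepressor pair of the REV-ERB receptors, were lowest at 4 mM in 5637 cells, at 18.6 and 21.9 FPKM.

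**Figure D4:**
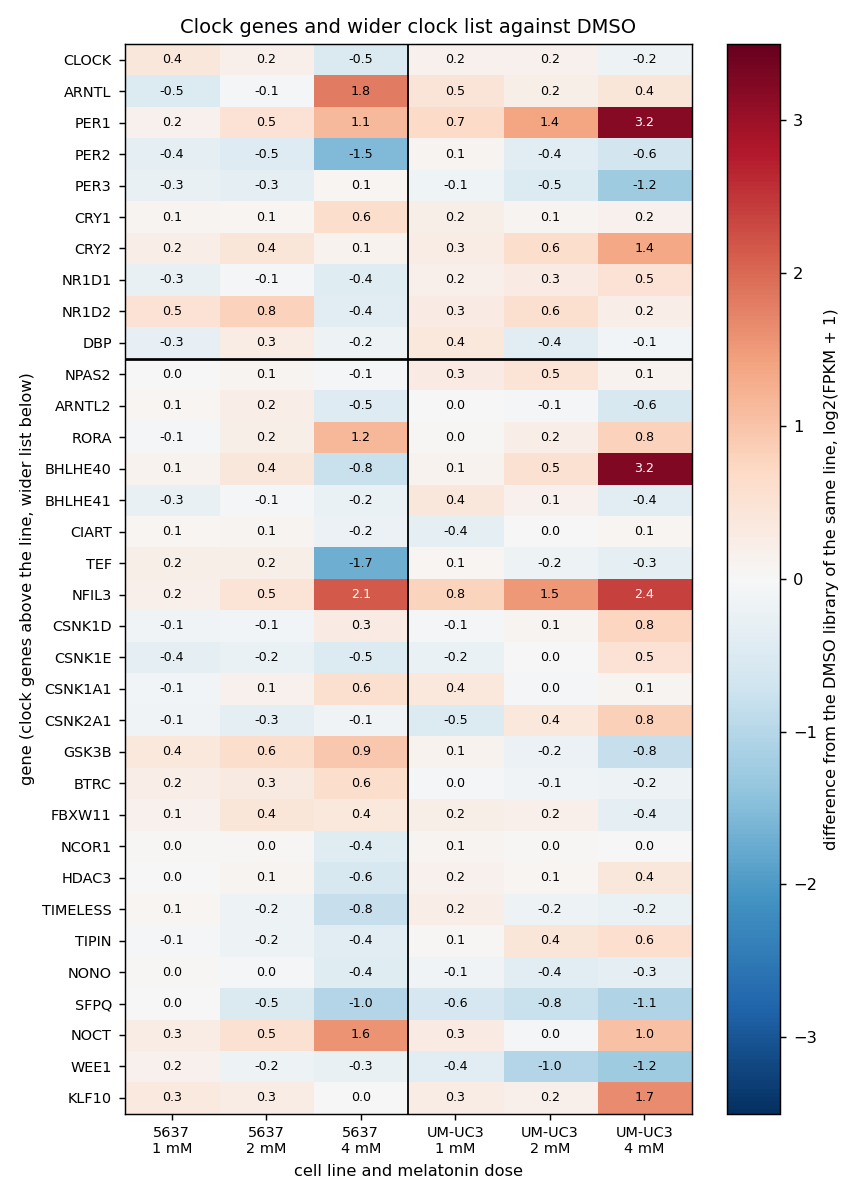
Difference in log2(FPKM + 1) from the DMSO library of the same line, for the 10 clock genes and genes of the wider clock list (rows) at 1, 2 and 4 mM melatonin in each cell line (columns), with colour for the size and sign. NFIL3 and PER1 were among the genes above the DMSO library in all 6 columns, and BHLHE40 reached its highest value in the UM-UC3 library at 4 mM.

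The clock genes were also set against each other by Pearson's r of log2(FPKM + 1) over the 8 libraries, after the mean of each line was taken off. These values are descriptions, since the libraries share doses and the 4 mM libraries weigh most. ARNTL and CRY1 had an r of 0.95 and PER1 and CRY2 an r of 0.91. The lowest values were −0.98 for CRY2 and PER3, −0.88 for ARNTL and CLOCK, −0.86 for PER2 and CRY1, −0.84 for PER1 and PER3 and −0.81 for PER2 and ARNTL. Among all 12648 other tested genes, the course of PER1 was most like that of SPRY2 (r = 0.997), a feedback inhibitor of growth factor signalling, then AL135905.2 (0.995) and CCDC181 (0.991), and 492 genes had an r above 0.9. The genes nearest to PER2 were GATB (0.998), MVB12A (0.995) and CBX2 (0.9945), with 1019 genes above 0.9. Those nearest to CRY2 were ACTR10 (0.987), RFFL (0.986) and GTF2H4 (0.979), with 257 above 0.9. For ARNTL they were H2BC15 (0.991), TRIM39 (0.990) and LZTFL1 (0.987), with 311 above 0.9.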

How the data were processed

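RNA was measured in 8 libraries, 4 per cell line. Poly(A) RNA went into directional libraries that were read from both ends, and the methods state trimming with Cutadapt and Trimmomatic and alignment with HISAT2 to GRCh38. StringTie appears in the submitters' processing notes. Which annotation was used is not stated, and the RNA extraction kit differs between labels and methods. What the authors deposited is a normalized value for each gene in each library with no unit named, taken to be FPKM, because they include fractions and add up to a different total in each library. FPKM divides by transcript length and library size, so depth and counting error are unknown. A second sheet with the same values for 22465 of the genes was not used.

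Of 60612 genes, the 12649 whose mean FPKM was 1 or more were fitted on log2(FPKM + 1) with limma 3.58.1 (eBayes with trend and robust) in R 4.3.3 against dose divided by 4, with a term for the cell line (5 residual degrees of freedom). A fit with a slope per line (4 residual degrees of freedom) gave the trends by line and their difference. P-values were adjusted by Benjamini-Hochberg over all genes tested, and calls were made at 0.05. The scripts were tested on simulated data. The 10 clock genes, the wider clock list and the tests were chosen with earlier results of these data known. Named are all 10 clock genes, genes of the wider list called over both lines or in a line, genes of its small role groups, and the 3 genes most correlated with PER1, PER2, CRY2 and ARNTL. FBXL21 was not analysed here, and the results of 2 genes are not reported here. TMM factors were computed on the FPKM values, gene positions came from GENCODE v44, where 10 of 10 IDs matched and 9 had the same start and end, and sequences came from RefSeq. The 19 alternatives comprised 2 rescalings of the libraries, other filters and a pseudocount of 0.1, other codings of the dose, other limma settings and each library left out in turn. Tables were made with pandas 2.3.3 under Python 3.11.15, and figures with matplotlib 3.10.9.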

Additional observations from a re-analysis of the deposited data

Results flagged for a closer look

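For 3 clock genes a difference between the cell lines in the slope over dose was called by the test of the difference itself (limma, adjusted over all genes tested, with 25.7% of all genes called). The slope of PER1 was 2.03 greater in UM-UC3 than in 5637 cells on the log2(FPKM + 1) scale (adjusted p = 0.00251), with PER1 higher than with DMSO in 3 of 3 melatonin libraries of each line. The slope of PER3 was lower in UM-UC3 cells by a difference of −1.42 (adjusted p = 0.0209). PER3 was lower than with DMSO in 3 of 3 melatonin libraries in UM-UC3 cells and in 2 of 3 in 5637 cells. It passed the filter through its level in UM-UC3 cells and was under 1 FPKM in every 5637 library. A decrease in 5637 cells could hardly show on this scale, so this test cannot separate a different response from a low level. The slope of CRY2 was higher in UM-UC3 cells by 1.27 (adjusted p = 0.0180), and CRY2 was higher than with DMSO in 3 of 3 melatonin libraries of each line. The PER1 difference was lost when the UM-UC3 4 mM library was left out, and those of PER3 and CRY2 when the 4 mM library of either line was left out. With all libraries kept, all 3 differences were lost when the dose was coded as log2(dose + 1), and those of PER3 and CRY2 without the filter. With a pseudocount of 0.1 the PER3 difference was −2.27 and not called (adjusted p = 0.0615). Line and culture medium cannot be told apart in all 3.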

How the results depend on the processing

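The number of clock genes called over both lines (2 with limma) was 1 without a filter, 1 at a mean FPKM of at least 5, 1 without both 4 mM libraries (NR1D2), and 0 for any dose against DMSO, for 4 mM against DMSO alone and without a line term, where 0, 2 and 2 genes had an unadjusted p under 0.05. With 1 library left out it was 2 to 4. The share of all genes called under each alternative is not given beside these counts, nor beside those of the wider list below. A lower count of clock genes therefore cannot be told apart from fewer calls among all genes. In 5637 cells (4) it was 2 without a filter, 1 with log2(dose + 1), 1 without both 4 mM libraries and 0 for any dose (0 unadjusted), and 0 to 5 with 1 library left out, with 0 (2 unadjusted) without the 5637 4 mM library. In UM-UC3 cells (3) it was 1 without both 4 mM libraries (PER1), 0 for any dose (0 unadjusted) and 0 to 4 with 1 library left out, with 0 (2 unadjusted) without the UM-UC3 4 mM library. For the difference (3) it was 1 without a filter, and 0 with log2(dose + 1), for any dose and without both 4 mM libraries (4, 0 and 1 unadjusted), and 0 to 4 with 1 library left out, with 0 (1 unadjusted) without the UM-UC3 4 mM library. Between the lines (6, of which PER2 and PER3 passed the filter through a single line) it was 3 at a mean FPKM of at least 5, which leaves fewer clock genes tested, 3 for 4 mM against DMSO alone, and 5 to 7 with 1 library left out.

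In the wider list, calls over both lines (6) were 3 without a filter, 1 for 4 mM against DMSO alone, 0 for any dose, without both 4 mM libraries and without a line term (2, 4 and 4 unadjusted), and 4 to 7 with 1 library left out. In 5637 cells (9) they were 4 with log2(dose + 1), 0 for any dose and without both 4 mM libraries (1 and 6 unadjusted), and 0 to 10 with 1 library left out, with 0 (3 unadjusted) without the 5637 4 mM library. In UM-UC3 cells (11) they were 3 without a filter, 4 with log2(dose + 1), 2 without both 4 mM libraries, 0 for any dose (1 unadjusted), and 0 to 12 with 1 library left out, with 0 (3 unadjusted) without the UM-UC3 4 mM library.

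Signs turned in 8 single-gene values that were called with or without the alternative. Without both 4 mM libraries ARNTL was at −0.16 in 5637 cells (also without the 5637 4 mM library alone), TEF at 0.42 in 5637 cells (likewise), NOCT at −0.10 in UM-UC3 cells (also without the UM-UC3 4 mM library alone), and NR1D2 at 1.37 over both lines and 1.62 in 5637 cells. With any 1 library left out the value ranged from −0.16 to 3.16 for ARNTL in 5637 cells, from −2.75 to 0.42 for TEF in 5637 cells and from −0.10 to 1.16 for NOCT in UM-UC3 cells. ARNTL over both lines was called without the UM-UC3 4 mM library (1.72, adjusted p = 0.0269), and PER3 (−1.16, adjusted p = 0.0115) and CRY2 (1.27, adjusted p = 0.00492) without the 5637 4 mM library. The cause was not tested for any of these. The 4 mM libraries carry the largest part of the dose range, and no within-line test of 4 mM against DMSO could be made, since no residual degrees of freedom remain. Scaling each library to the same sum raised all values, so the added 1 also weighed less. It moved the median log2 fold change of all genes in UM-UC3 cells from −0.04 to −0.23, and that of the difference from −0.11 to −0.35. The calls in UM-UC3 cells then split into 961 higher and 2891 lower, against 1583 and 2113, and those for the difference into 884 and 2597, against 1313 and 1936. With TMM rescaling they split into 1982 and 1991 and into 1710 and 1739. Of the other single-gene values, 1929 kept direction or were uncalled on both sides, 200 lost and 33 gained a call. Each dose has 1 library per line and the labels carry no replicate numbers, so no pairing within a line could be made. The line is a block in the fit, and depth is unknown.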
